A study of Caenorhabditis elegans with 4 samples.

Results

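The 399 regions described here are the peaks on chromosome II in the combined peak list of a chromatin immunoprecipitation sequencing (ChIP-seq) experiment, out of 2590 combined peaks on the 6 chromosomes of Caenorhabditis elegans. They were chosen by chromosome alone, so their position along it, spacing, width, strength and replicate support were not part of the choice. The protein studied was R02D3.7 (current name rcat-1), which the labels call a transcription factor, fused to GFP. All libraries came from L4 hermaphrodites of the strain OP218, unc-119(ed3) mutants that carry the integrated transgene wgIs218 with the tagged R02D3.7 and an unc-119 rescue copy, grown at 20 °C. There were 2 ChIP libraries, collected with antibodies to GFP, and 2 input libraries of unselected DNA from the same kind of extract. The same strain served for ChIP and input, and no strain without the tagged protein was analysed here. The transgene was introduced by bombardment.

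A transcription factor binds DNA at promoters and other regulatory regions, and ChIP-seq finds the fragments to which it was crosslinked as peaks of read density. Chromosomes of C. elegans have no single centromere. Their gene-dense central parts recombine little, and their arms recombine more and hold more repeats and fewer conserved genes. In the worm, many factors are also known to share a set of heavily occupied regions, so a peak of one factor need not be particular to it.

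Besides the combined list, a list for each ChIP library was used, with 210 chromosome II peaks of 1251 in replicate 1 and 141 of 810 in replicate 2. Coordinates are WormBase WS190. Peak strength is given as -log10 q, from the authors' q-value, a p-value corrected for testing many regions. It depends on read depth as well as on binding, so strengths are compared within a list. Read depth is unknown here. The labels do not say whether replicates 1 and 2 came from separate cultures, and intervals on shares cover counting error only. P-values were computed over peaks, which cluster along the genome and are not independent, so they are too small and say nothing of the spread between the 2 libraries. With no WS190 sequence or gene models used, peaks are given by position, with no gene assigned and no sequence shown.

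Chromosome II carried about the number of peaks expected from its span, and they leaned to its right side. Its span, taken up to the last peak end of the 3 lists, was 15.2 Mb, with 26.2 combined peaks per Mb. This was 1.01 times the number expected from its part of the summed spans (95% interval 0.922 to 1.11; two-sided exact binomial test, p adjusted over 6 chromosomes = 0.784). In replicate 1 the ratio was 1.10 (interval 0.970 to 1.25, adjusted p = 0.187 by the exact test) and in replicate 2 it was 1.14 (0.976 to 1.33, adjusted p = 0.130 by the exact test). The interval of the ratio held 1 in each of the 3 lists. The other chromosomes lay further from 1 in the combined list. Their ratios were 1.47 on III, 1.14 on I, 0.880 on IV, 0.870 on V and 0.776 on X. Each had an adjusted p of 0.00573 or lower by the exact test. The expectation thus pools uneven chromosomes. With III left out, the ratio of II was 1.09 (0.999 to 1.19, adjusted p = 0.0828 by the exact test).

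The span was divided into 4 segments of equal length, and each held more combined peaks than the one to its left. The left segment, from base 1 to 3808069, held 49 combined peaks, or 12.9 per Mb. The next segment held 99 peaks (26.0 per Mb) and the one after it 116 (30.5 per Mb). The right segment, from 11424208 to the last peak end at 15232276, held 135 peaks, or 35.5 per Mb. The left segment thus had 12.3% of the chromosome II peaks (Wilson 95% interval 9.42 to 15.9) and the right segment 33.8% (29.4 to 38.6).

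Both ChIP libraries showed the same lean. The left segment held 21 of 210 replicate 1 peaks (10%, Wilson interval 6.63 to 14.8), and 15 of 141 in replicate 2 (10.6%, 6.55 to 16.8). The right segment held 68 peaks of replicate 1 (32.4%, 26.4 to 39.0) and 48 of replicate 2 (34.0%, 26.7 to 42.2). In every list the intervals of the outer segments did not overlap. Divided at the middle of the span, 251 of the 399 combined peaks lay to the right (62.9%, 58.1 to 67.5), as did 65.7% in replicate 1 and 67.4% in replicate 2.

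On the other 5 chromosomes together the outer segments were nearly even, with 22.4% of 2191 combined peaks in the left one and 20.7% in the right one. Chromosome II had the lowest left share of the 6 chromosomes in each list and the highest right share. Its nearest neighbour on the left side was chromosome III, at 16.6% of its combined peaks (interval 13.7 to 20.0), with 13.0% and 11.6% in the replicates, and these intervals overlapped those of II. On the right side the nearest was X, at 26.1% of its combined peaks (21.8 to 30.9), with 31.8% and 25.7% in the replicates, again with overlapping intervals. The segments were set out as a description, so neither the lean nor its difference from other chromosomes was tested, and no value on reads or mappability by region was used.

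**Figure D1:**
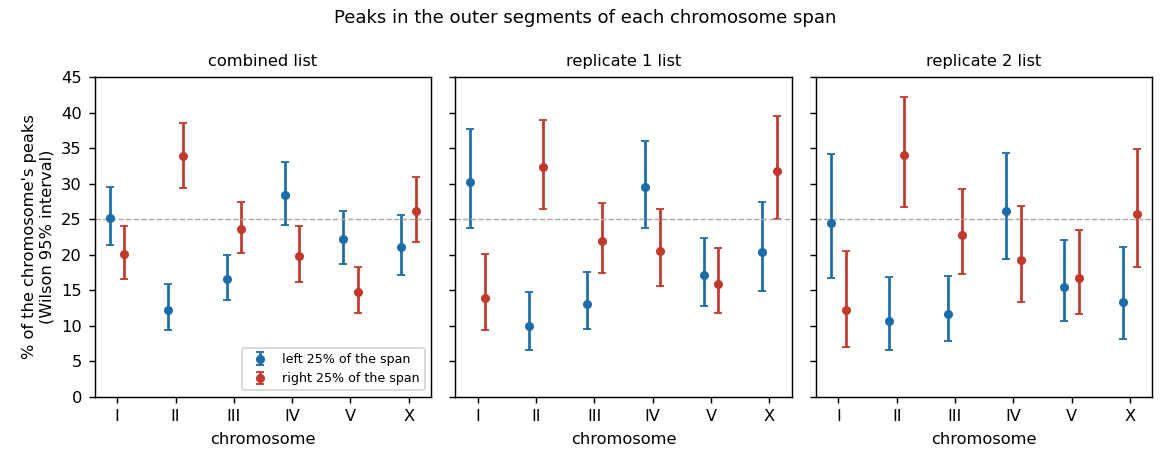
Share of each chromosome's peaks in the left 25% (blue) and the right 25% (red) of its span, in percent, for the 3 lists; points are shares, bars are Wilson 95% intervals and the dashed line is at 25%. Chromosome II shows the widest distance between the segments in the combined list, 12.3% against 33.8%, and a similar one in both replicate lists.

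The left segment held the fewest peaks both among strong peaks and among those found in neither replicate. Of the 57 chromosome II peaks with a q-value under 1e-10, 8 lay in the left segment, 12 and 21 in the middle segments and 16 in the right one. Of the 95 peaks found in both replicates, 11 (11.6%) lay in the left segment and 30 (31.6%) in the right one. The 166 peaks found in neither replicate were divided 26, 43, 42 and 55 from left to right. The share found in both replicates was 22.4% in the left segment (interval 13.0 to 35.9) and 22.2% in the right segment (16.0 to 29.9), and these intervals overlapped. Peaks under 1e-10 made up 16.3% of the left segment and 11.9% of the right one. Those found in neither replicate made up 53.1% and 40.7%. These differences were not tested.

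In windows of 1 Mb the combined counts on II ranged from 10 to 51, with a median of 23 over the 15 full windows. The sparsest was the window from 2000001 to 3000000, which was also the sparsest in replicate 1 and in replicate 2, with 2 peaks in each. The densest was the window from 11000001 to 12000000, with 51 combined peaks, 23 of replicate 1 and 24 of replicate 2. It was the densest in replicate 2 as well, while in replicate 1 the window from 10000001 to 11000000 held more, with 27 peaks. In the combined list it was followed by the windows from 8000001 to 9000000, with 37 peaks, and from 5000001 to 6000000, with 34. The first 4 windows together held 52 combined peaks, of which 12 were found in both replicates.

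The counts were uneven along II. Their variance over the full windows was 4.71 times the mean in the combined list, compared with 1.93 to 4.03 on the other chromosomes. In replicate 1 the ratio was 3.40 on II and 1.15 to 3.84 elsewhere, and in replicate 2 it was 3.69 on II and 1.05 to 3.71 elsewhere, so II led only in the combined list. Within the densest window, the 50 kb from 11950001 to 12000000 held 9 peaks, the most on II, of which 2 were found in both replicates and the same number had a q-value under 1e-10. The central 50% of the II span held 215 of its 399 peaks (53.9%), beside 56.4% over all chromosomes. The difference from the other chromosomes was -2.98 percentage points (95% interval -8.30 to 2.28; two-sided Fisher's exact test, p adjusted over 8 shares = 0.642).

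**Figure D2:**
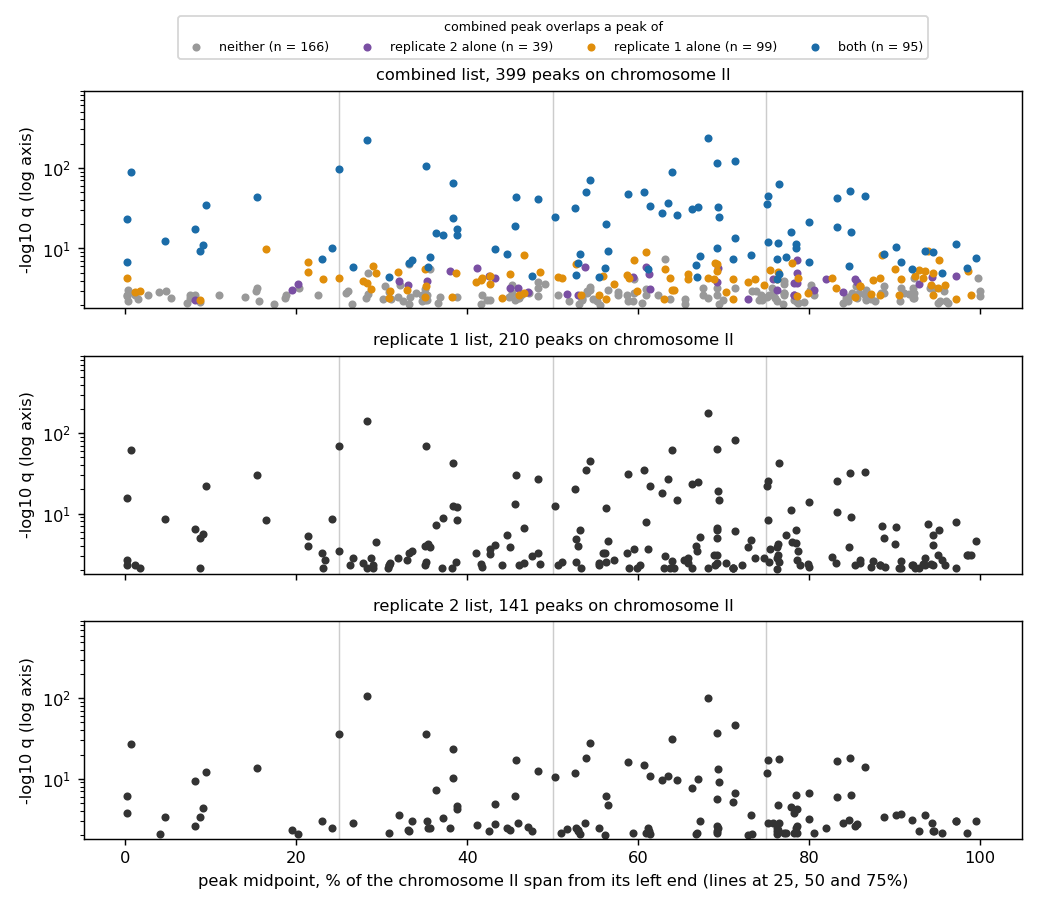
Position of each chromosome II peak, as a percent of the span from its left end, against its -log10 q on a log axis, for the combined list (coloured by the replicates whose peaks it overlaps), replicate 1 and replicate 2; grey lines mark the segments. The left segment holds 49 of the 399 combined peaks, and the peaks with the smallest q-values recur at the same positions in all 3 lists.

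The strongest peak on the chromosome lay at chrII:10387223-10389168, with a combined q-value of 9.62e-237, and of 3.59e-177 in replicate 1 and 8.36e-102 in replicate 2. It was the strongest of II in the combined list and in replicate 1 and second to one other in replicate 2. That other peak, at chrII:4298484-4300419, had q-values of 3.67e-225, 2.81e-142 and 1.50e-107, respectively. These peaks stood well apart from the remainder: the -log10 q of the combined list was 236 and 224 for them and 123 for the next.

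The peaks ranked 3 and 4 lay in the same Mb as the strongest one. The peak at chrII:10871788-10873169 had a combined q-value of 3.57e-124, and 2.24e-82 in replicate 1 and 1.80e-47 in replicate 2. The peak at chrII:10541832-10544276 had a combined q-value of 2.64e-117 and was the widest on II, at 2445 bp. The 3 peaks of this Mb that were among the 20 strongest fell within 486 kb. The window also held 9 of the 57 peaks under 1e-10, the most of any on II.

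Strong peaks further to the left lay at differing distances from their nearest neighbour. The peak at chrII:5357635-5358948, 7035 bp from its nearest neighbour, had a combined q-value of 1.96e-105, with 1.22e-69 in replicate 1 and 8.67e-37 in replicate 2. At chrII:3807614-3808943 the values were 3.18e-97, 4.92e-69 and 6.35e-37, and this peak straddles the border of the left segment and had a neighbour 1383 bp away. The left end of the chromosome carried a strong peak at chrII:97547-99097, with 5.86e-90, 6.71e-62 and 2.05e-27, whose nearest neighbour was 46152 bp away. The only other of the 20 strongest in the left segment was at chrII:2341305-2342643 (combined q = 2.04e-44), in the sparsest window of the chromosome but with another peak 201 bp away.

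The other 12 of the 20 strongest peaks found in both replicates lay between 5838821 and 13187746. In order of strength they were chrII:9745309-9746662, chrII:8275737-8276839, chrII:5838821-5839721, chrII:11652303-11653559, chrII:12918526-12919648 and chrII:8216020-8217069, then chrII:9242361-9243479, chrII:8964378-8965524, chrII:13186444-13187746, chrII:11463559-11464730, chrII:6967306-6968823 and chrII:12679376-12680223. Their combined -log10 q ran from 89.0 down to 42.2. Over all 20, 2 lay in the left segment, 5 and 8 in the middle segments and 5 in the right one. Their widths were 848 to 2445 bp, and 10 of them had another peak within 2 kb. Among the chromosome II peaks of each library, all 20 ranked 22 or better in replicate 1 and 20 or better in replicate 2, so the leading regions were nearly the same ones.

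All 57 chromosome II peaks with a q-value under 1e-10 overlapped a peak of both replicates. On the other chromosomes such overlap was not complete. Peaks found in replicate 1 alone reached a -log10 q of 19.8 there, and those found in replicate 2 alone reached 11.6. The 57 peaks were 14.3% of the II peaks, the same as the 14.3% over all chromosomes, and the difference from the other chromosomes was -0.046 percentage points (interval -3.50 to 3.98; Fisher's exact test, adjusted p = 1). In the single libraries 41 of the 210 replicate 1 peaks (19.5%) and 29 of the 141 replicate 2 peaks (20.6%) passed this limit, beside 17.2% and 17.5% over all chromosomes. The median -log10 q of combined peaks was 3.43 on II (quartiles 2.63 and 5.90), and 3.43 over all 2590 peaks.

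Replicate support was complete for strong peaks and rare for weak ones. The combined list was taken as pooled from the same ChIP libraries. Its overlap with their lists is therefore not independent evidence for a peak. The first 50 combined peaks of II were all found in both replicates, down to a -log10 q of 11.7. Of ranks 51 to 100, 32 of 50 (64%) were found in both, and of ranks 101 to 200, 13 of 100. None of the 199 weakest peaks was found in both, and 151 of them (75.9%) were found in neither. The strongest peak without full support ranked 58, at chrII:2513001-2513902 (q = 1.79e-10), and overlapped a replicate 1 peak alone. The strongest one found in replicate 2 alone was at chrII:11974477-11974977 (q = 7.81e-08), and the strongest found in neither was at chrII:9617464-9618193 (q = 4.14e-08), 730 bp wide.

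In all, 95 of the 399 peaks overlapped a peak of both replicates by at least 1 bp (23.8%, Wilson 95% interval 19.9 to 28.2), beside 21.2% over all chromosomes. The difference from the other chromosomes was 3.09 percentage points (interval -1.20 to 7.80; Fisher's exact test, adjusted p = 0.642). A further 99 (24.8%) overlapped a replicate 1 peak alone, beside 23.4% over all chromosomes, and 39 (9.77%) a replicate 2 peak alone, beside 7.18%. The remaining 166 peaks overlapped no replicate peak (41.6%, interval 36.9 to 46.5), beside 48.3% over all chromosomes. This share was the lowest of the 6 chromosomes, and its difference from the others was -7.87 points (interval -13.0 to -2.55; Fisher's exact test, adjusted p = 0.0311). The difference did not pass the test without chromosome I, where 62.2% of peaks had no replicate partner. With I left out it was -4.65 points (-9.93 to 0.772; Fisher's exact test, adjusted p = 0.642), and the other 4 chromosomes lay at 44.1% to 48.3%. Nor did it pass with support from 1 library alone. The difference was -6.15 points for peaks without a replicate 2 partner (-11.3 to -1.30; Fisher's exact test, adjusted p = 0.107). For those without a replicate 1 partner it was -4.81 (-10.1 to 0.490; Fisher's exact test, adjusted p = 0.638).

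Peaks of the classes differed in strength and width in the same order as their support. The 95 peaks with full support had medians of 12.4 in -log10 q and 634 bp in width. The medians were 4.14 and 219 bp for replicate 1 alone, 3.85 and 219 bp for replicate 2 alone, and 2.63 and 102.5 bp for neither. A region can fall just short of the limit in a single library, so the lack of a partner is not evidence that the protein was not bound there.

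**Figure D3:**
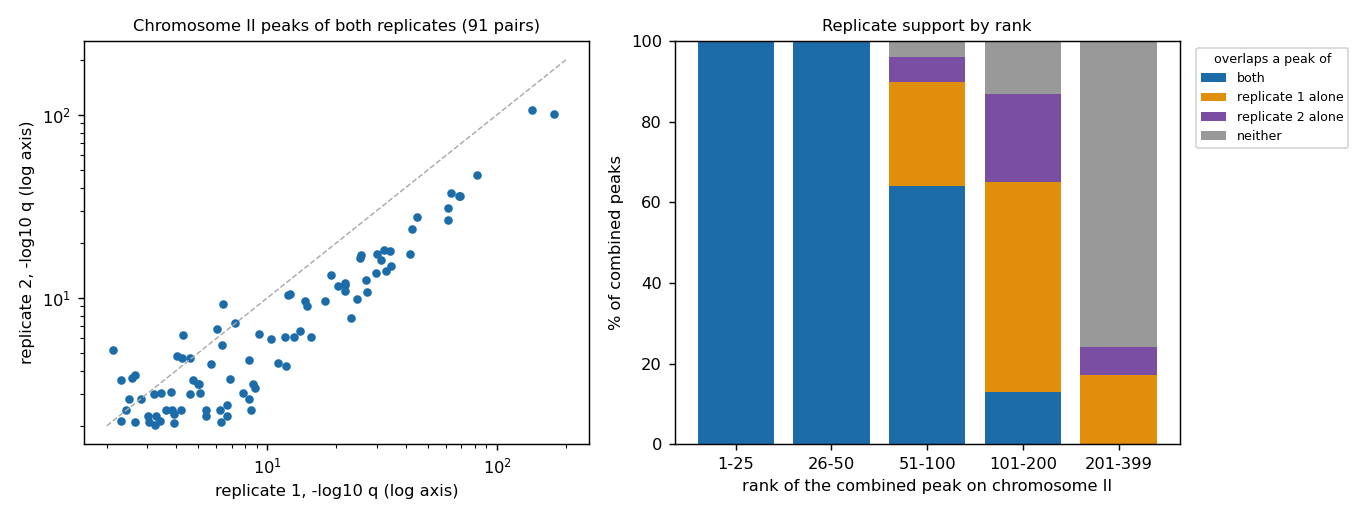
Left, -log10 q of the 91 replicate 2 peaks on chromosome II that overlap a replicate 1 peak, against that peak's -log10 q, both on log axes, with the line of equal values dashed; most points lie below it. Right, percent of combined chromosome II peaks that overlap peaks of both replicates, of 1 or of neither, by rank of strength: the first 50 are all found in both and the last 199 never.

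Between the single libraries, 91 of the 210 replicate 1 peaks on II overlapped a replicate 2 peak (43.3%, interval 36.8 to 50.1), beside 42.9% over all chromosomes. In the other direction 91 of the 141 replicate 2 peaks were shared (64.5%, 56.4 to 72.0), beside 68.1%. The differences from the other chromosomes were 0.490 points (-6.70 to 7.88; Fisher's exact test, adjusted p = 1) and -4.37 points (-13.2 to 3.88; Fisher's exact test, adjusted p = 0.642). The strongest replicate 1 peak of II with no replicate 2 partner ranked 46 (chrII:2513012-2513877, q = 4.50e-09). The strongest replicate 2 peak with no partner ranked 54 (chrII:11974478-11974934, q = 6.72e-05).

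Shared peaks lay close together in the 2 libraries, which is partly set by their choice, since a pair had to overlap by at least 1 bp. The midpoints of the 91 pairs were a median of 55.5 bp apart (upper quartile 113 bp, highest 275 bp), against 60.5 bp for the 461 pairs on the other chromosomes. The replicate 2 peak was the narrower one in 76 of the 91 pairs, at a median of 0.678 times the replicate 1 width, and lay wholly inside its partner in 58 (63.7%). On the other chromosomes it was narrower in 362 of 461 pairs, at a median of 0.718 times, and inside in 252 (54.7%). It was also the weaker in 78 pairs on II, at a median of 0.580 times the -log10 q, and in 393 of the 461 pairs elsewhere, at 0.608 times. The order of strength was nevertheless alike, with a Spearman's rho of 0.86 and a Pearson's r of 0.98 over the 91 pairs. Over the 461 other pairs they were 0.78 and 0.88. Where each peak had a single partner, rho was 0.87 and r 0.98 over 88 pairs on II. Over 429 such pairs elsewhere they were 0.80 and 0.97, so r was nearly the same. These values are given as a description because peaks of 1 chromosome share their libraries. In the 95 combined peaks found in both, the combined -log10 q exceeded that of either partner in all 95. This was nearly so elsewhere, where it exceeded the replicate 1 partner in 448 of 454 peaks and the replicate 2 partner in 449.

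Few replicate peaks of II were missing from the combined list. These were 14 of the 210 of replicate 1 (6.67%), beside 5.92% over all chromosomes, and 6 of the 141 of replicate 2 (4.26%), beside 5.19%. None of the 20 had a partner in the other library. The strongest of them lay at chrII:7352946-7353142 in replicate 1 (q = 0.000536), 231 bp from the nearest combined peak, and at chrII:11637380-11637415 in replicate 2 (q = 0.00472), 1951 bp from the nearest.

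Most peaks were narrow. Combined peaks on II were 2 to 2445 bp wide, with a median of 200 bp (quartiles 95 and 381.5 bp), beside 199 bp over all chromosomes. The median was 231.5 bp in replicate 1 and 200 bp in replicate 2, where the all-chromosome values were 253 and 243 bp. The combined peaks covered 122 kb, or 0.800% of the II span, beside 0.923% over all chromosomes. The other chromosomes ranged from 0.662% on V to 1.17% on III. The 21 peaks over 1000 bp were all found in both replicates. On the other chromosomes some peaks of such width were not. The widest were 1207 bp for replicate 1 alone, 1400 bp for replicate 2 alone and 117403 bp for neither. Wider peaks were stronger, with a Spearman's rho of 0.82 over the 399 peaks, a description in which width and q-value come from the same call.

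At the other end, 68 peaks were shorter than 50 bp (17.0%, interval 13.7 to 21.0), beside 16.0% over all chromosomes. The difference from the other chromosomes was 1.21 points (-2.52 to 5.47; Fisher's exact test, adjusted p = 0.885). None of these short peaks was found in both replicates, 13 were found in 1 and 55 (80.9%) in neither, and the highest -log10 q among them was 4.15. The narrowest, at chrII:6492225-6492226, was 2 bp wide (q = 0.000215) and fell inside a replicate 1 peak of 133 bp.

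Consecutive peaks on II were separated by a median of 15630 bp (quartiles 3312 and 49866 bp), beside 16004 bp over all chromosomes. Of the 398 gaps, 28 were under 500 bp and 40 were over 100000 bp, while the smallest was 200 bp. No list held a gap below 200 bp on any chromosome. The widest gap on II, 458664 bp, lay between the weak peaks at chrII:1663607-1663633 and chrII:2122298-2122373, and 5 of the 8 widest gaps began in the left segment. In the single libraries the median gap was 41971 bp in replicate 1 and 68129 bp in replicate 2, and the widest gaps were 903251 and 904036 bp.

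**Figure D4:**
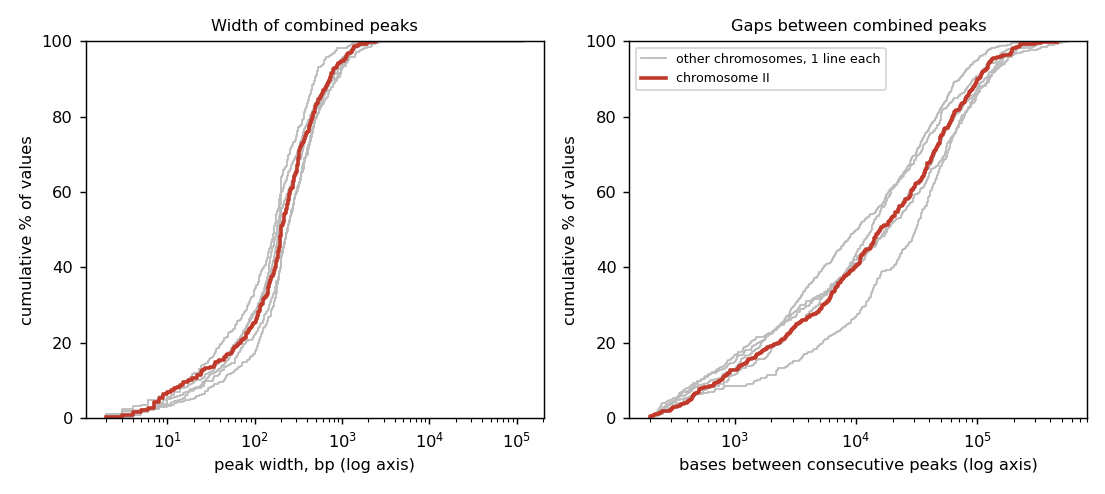
Cumulative percent of combined peaks by width in bp (left) and of gaps between consecutive combined peaks by length in bp (right), on log axes, for chromosome II (red) and each other chromosome (grey). The curves of II, with medians of 200 bp and 15630 bp, run among those of the other chromosomes, and a single X peak of 117403 bp extends the width axis.

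A neighbour within 2 kb was present for 137 of the 399 peaks (34.3%, interval 29.8 to 39.1), beside 34.4% over all chromosomes. The difference from the other chromosomes was -0.123 points (-5.04 to 5.05; Fisher's exact test, adjusted p = 1). These peaks formed 61 runs, of which 51 were pairs, 7 held 3 peaks and 3 held more. Of the 57 peaks under 1e-10, 22 were in runs (38.6%), as were 115 of the 342 others (33.6%), a difference that was not tested, and 18 of the 61 runs held a strong peak. The share of peaks with such a neighbour was 32.7%, 31.3%, 39.7% and 32.6% in the segments from left to right.

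The longest run on II held 6 combined peaks over 7641 bp, from 10541832 to 10549472. It began with the widest peak, at 10541832 to 10544276, and held a second strong peak at chrII:10547960-10548541 (q = 6.69e-11). The widest peak overlapped 3 peaks in each replicate. In replicate 1 they were 936, 93 and 580 bp wide, with -log10 q of 63.1, 2.47 and 6.67, and in replicate 2 they were 1387, 138 and 203 bp wide, with 37.3, 2.26 and 2.61. One of the parts thus carried nearly all of the strength in either library. The peak at 10547960 was found at 10548064 to 10548474 in replicate 1 and at 10547805 to 10548531 in replicate 2, and of the 4 other peaks of the run 1 was found in replicate 1 alone, 1 in replicate 2 alone and 2 in neither. The next longest runs held 4 peaks each, at chrII:6489834-6492226 and chrII:11917616-11920011, with no strong peak and none found in both replicates.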

How the data were processed

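Peaks were called by the authors with PeakSeq on WormBase WS190, per the file headers and each record, and each deposited peak carries a q-value as its only score. The aligner, the read filters, the controls and how the lists were combined were not given in the sources used here. Start and end were taken as 1-based inclusive. Input libraries contributed no values. Overlaps, gaps (bases between consecutive peaks), segments and windows (by peak midpoint) and tests were computed in Python 3.11.15 with scipy 1.17.1 and statsmodels 0.14.6. Peak number was tested with two-sided exact binomial tests (Benjamini-Hochberg over 6 chromosomes), and 8 shares with two-sided Fisher's exact tests of II against the other 5 chromosomes (Benjamini-Hochberg over the 8), with Newcombe 95% intervals of the difference. The threshold was 0.05. Both tests were checked on simulated lists. The simulated peaks were placed independently of each other, so the check cannot show how the tests behave with clustered peaks.

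Named peaks were the 20 with the smallest q-values among those found in both replicates, the strongest of each other class, the widest, the narrowest and those beside the widest gap. The first and last peaks, each found in neither replicate, lay at chrII:18939-19167 and chrII:15232152-15232276. Further peaks named were chosen after their values were seen. The members and all tests were chosen with earlier results of these data known. No genome or annotation of WS190 was used. The table of current gene names is on WBcel235 and served for the name rcat-1 alone.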

Additional observations from a re-analysis of the deposited data

How the results depend on the processing

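Of 47 alternative values, 37 kept their direction and side of the threshold or stayed in the interval of the reported share. Only the share of peaks found in no replicate passed the test. It also passed with an overlap of 50% of the shorter peak and among the stronger 50% of the combined list, but not without chromosome I (difference -4.65 points), nor with a single replicate (-6.15 to -4.81). The sign of the difference turned for q under 1e-20 (1.63 points), for peaks shorter than 100 bp (-0.428), for replicate 2 peaks shared among the stronger 50% (0.531), with both single lists for q under 1e-10 (2.81 to 3.68), and for peaks under 50 bp with the replicate 1 list (-3.22) but not with that of replicate 2 (1.63). None of these passed the test. The left segment held 9.09% of the stronger 50%, and 10% to 12.9% under the other 5 alternatives, all added after the data were seen. The number of peaks did not pass the test under any of its 7 alternatives, the highest ratio being 1.14. The cause of these changes was not tested. No paired analysis was possible because peak lists of the ChIP libraries alone were analysed. Depth is unknown, so what it limits could not be computed.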
